A study of Schmidtea mediterranea with 24 samples.

Results

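The response of messenger RNA to *fbl-1* RNAi was measured in regenerating planarians of the asexual CIW4 strain of *Schmidtea mediterranea* at 48 hours post amputation (hpa). It was read from 6 of the 24 libraries of the study: 3 RNA-seq libraries labelled *fbl-1* KD (worms fed double-stranded RNA of *fbl-1*) and 3 labelled *egfp* KD (controls fed RNA of *egfp*, a jellyfish gene that planarians lack). A replicate was a lysate of 30 worms, of which 25% went to RNA-seq. The labels describe the tissue as head, trunk and tail, so whole fragments of many cell types were measured together. Worms were fed 5 times at intervals of 3 days and starved for 7 days; the food for *fbl-1* was 4x, while its strength and number for the *egfp* KD controls are not stated in the sources used here. Of 16575 genes, 12965 had a value of at least 10 in at least 3 of the 6 libraries and were tested. The groups *fbl-2* KD (2x food) and *egfp* 2x KD, with 3 RNA-seq libraries each, were used only where a change was compared between the knockdowns.

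Fibrillarin is the enzyme that, guided by small nucleolar RNAs, adds methyl groups to the ribose of ribosomal RNA while ribosomes are built in the nucleolus. The planarian has a pair of homologs, *fbl-1* and *fbl-2*. Planarians regenerate from neoblasts, dividing stem cells spread through the body whose progeny replace gut, epidermis, muscle, nerve and other tissues, and both the division and the differentiation of these cells need new ribosomes. A change in whole fragments can come from more or fewer cells of a type or from more or less RNA per cell, and the measurement cannot tell these apart.

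Values are reads per gene that the authors had already multiplied by 1 factor per library, so they are called scaled values here. Library totals lay between 9105694 and 9493274 for the libraries labelled *fbl-1* KD, against 8778527 to 9160752 for *egfp* KD. The spacing of low values showed the factors, and these put the reads behind the totals at about 7260000, 9700000 and 9480000 in the libraries labelled *fbl-1* KD, against 11500000, 10200000 and 12000000 in *egfp* KD. The groups thus did not overlap in depth. Genes above 0 numbered 14434 to 14720 in the libraries labelled *fbl-1* KD, against 14896 to 15028 in *egfp* KD. The part of this difference in depth in the results on rarely read genes was not tested. Spearman correlations between libraries were 0.985 to 0.990 within the libraries labelled *fbl-1* KD, 0.984 to 0.988 within *egfp* KD and 0.972 to 0.984 between the groups.

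Values of the targeted gene were higher, not lower, where the label names its knockdown. In a table of values per gene, reads of the fed RNA and of the worm's own transcript cannot be told apart. *fbl-1* (SMED30005569) had scaled values of 1383, 981 and 753 in the libraries labelled *fbl-1* KD, against 143, 130 and 129 in *egfp* KD. All 3 libraries labelled *fbl-1* KD lay above every control, and the change was 7.48-fold (log2 change 2.90, SE 0.18, adjusted p = 3.41e-07). The call held in each of the 6 fits that left out 1 library, with a highest adjusted p of 7.44e-06. *fbl-2* (SMED30025294) had 161, 128 and 165 in the libraries labelled *fbl-1* KD, against 161, 101 and 148 in *egfp* KD, which overlap (log2 change 0.16, SE 0.20, adjusted p = 0.695). By quantitative PCR and in situ hybridization, the study itself reported reduced *fbl-1* mRNA after *fbl-1* RNAi, and no influence on *fbl-2*. The reason for the difference from the values here was not tested. Because *fbl-1* went against the label, each direction below is that of the libraries as labelled.

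**Figure D1:**
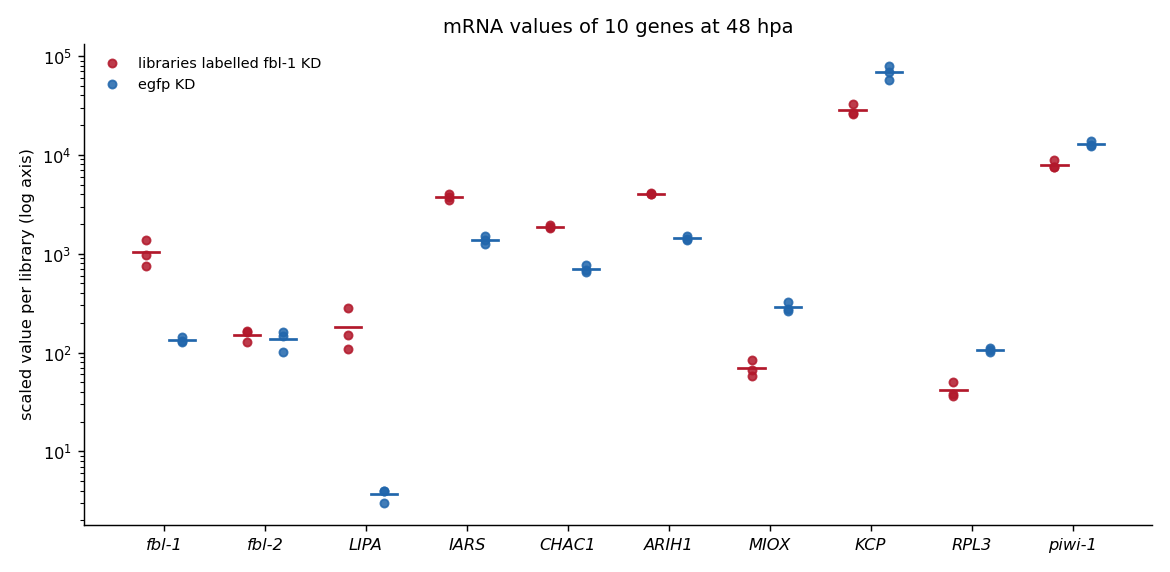
Scaled mRNA values (log axis) of 10 genes in the 3 libraries labelled *fbl-1* KD (red, left of each pair) and the 3 *egfp* KD libraries (blue, right). Points are libraries and lines are group means; in 9 of the 10 genes the groups do not overlap, and *fbl-2* is the exception.

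Of the 12965 genes, 336 rose and 318 fell at an adjusted p below 0.05, which is 5.04% of those tested (2.59% higher, 2.45% lower). In 644 of these 654 genes the 3 libraries of each group did not overlap. Over all tested genes, 11% lay without overlap on the higher side and 12.7% on the lower side. Most changes were small. The median log2 change was 0.66 among genes that rose and −0.67 among genes that fell, 32 rose by more than 1 on the log2 scale and 44 fell by more than 1, and the median over all tested genes was −0.01. Single libraries mattered: 134 calls (74 higher, 60 lower) held in all 6 fits with 1 library left out. Without *fbl-1* KD replicate 1, *fbl-1* KD replicate 3 or *egfp* KD replicate 3, 96, 96 and 110 genes were called higher and 94, 104 and 96 lower. Dividing every library by its total moved the balance to 267 higher and 417 lower, with the median of all genes at −0.06. Calls also depended on how limma models the spread: with a single prior variance for all levels in place of a mean trend, 25 genes were called higher and 24 lower, and 47 of these were among the 654. Of the groups below, that fit called 8 synthetases higher, 6 of the Intestine genes from the second name table lower, 3 hydrolases higher and 2 lower, and at most 2 genes in either direction in every other list, with 0 among matrix, contractile and cilium genes.

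Genes are named by the closest protein match that the tables of the study give, and these tables are held only in part. In all, 2095 tested genes had a name, and 246 (11.7%) of them rose while 157 (7.49%) fell. The names come from a table ordered by change in these same libraries and from a second one ordered by change under the *fbl-2* KD label, so named genes are richer in calls than the rest. Of the 1593 tested genes in the first, 323 rose (20.3%) and 95 fell (5.96%). The first table thus holds 323 of all 336 genes that rose, so genes outside it could hardly be called higher. Counts and medians of members that the first table does not name are shaped by this and are no evidence of a direction. Where a list has a count of its members in the second table, it is to be read against the 1915 tested genes of that table, of which 156 rose and 156 fell (8.15% each). Neither count is independent evidence of a direction for a list named mainly through the first table.

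The enzymes that load amino acids onto tRNAs rose together. Of 15 tested aminoacyl-tRNA synthetase genes, 13 rose, none fell at an adjusted or an unadjusted p below 0.05 (limma), and the median log2 change was 0.88 against −0.01 for all genes. *IARS*, which charges tRNA with isoleucine, had 3740, 4008 and 3500 in the libraries labelled *fbl-1* KD, against 1261, 1510 and 1370 in *egfp* KD. The groups were far apart, at 2.72-fold (log2 change 1.44, SE 0.11, adjusted p = 2.7e-06). *QARS*, the enzyme for glutamine, had 2896, 3240 and 2915 against 1014, 1300 and 1145 in *egfp* KD (log2 change 1.39, SE 0.12, adjusted p = 5.75e-06). *MARS*, for methionine, had 2215, 2222 and 2078 against 776, 844 and 975 in *egfp* KD (log2 change 1.33, SE 0.12, adjusted p = 6.54e-06). *CARS*, for cysteine, had 1496, 1398 and 1435 against 440, 629 and 592 in *egfp* KD (log2 change 1.40, SE 0.13, adjusted p = 1.7e-05). In each of these 4 genes the lowest library labelled *fbl-1* KD was above the highest control. *AARS*, for alanine, had 3909, 3958 and 3599 against 1652, 1689 and 1705 in *egfp* KD (log2 change 1.18, SE 0.11, adjusted p = 1.01e-05). The other 8 synthetases that rose did so by log2 changes of 0.42 to 1.08. The count was 11 or 12 whichever library was left out, and 10 of the 13 calls held in every such fit. The second table names only 1 of the 15, a second match to *TARS* with a log2 change of 0.09 that did not pass; all 13 that rose are named through the table chosen on these libraries.

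**Figure D2:**
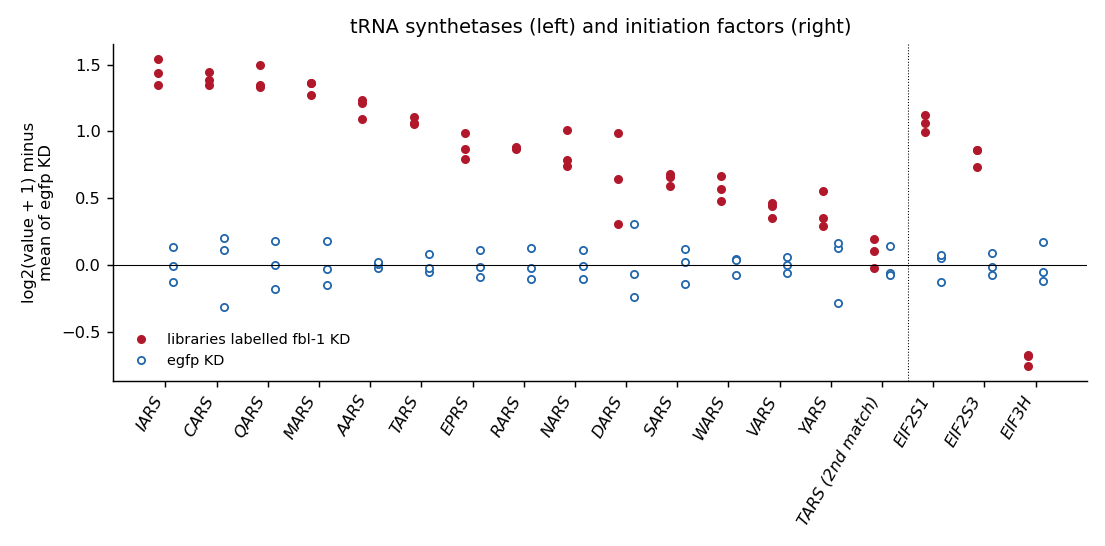
Log2 of value plus 1, relative to the mean of the 3 *egfp* KD libraries, for the 15 tested tRNA synthetase genes (left of the dotted line) and 3 initiation factor genes (right). Red points are libraries labelled *fbl-1* KD and open blue points *egfp* KD; *IARS* to *AARS* lie more than 1 above the controls and *EIF3H* lies below them.

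Initiation factors that bring the first tRNA to the ribosome were also higher for eIF2. *EIF2S1*, the alpha subunit of eIF2 and the site at which stress kinases slow initiation, had 325, 297 and 312 in the libraries labelled *fbl-1* KD, against 154, 136 and 156 in *egfp* KD (log2 change 1.06, SE 0.15, adjusted p = 0.000622). *EIF2S3*, the gamma subunit that binds the initiator tRNA, had 1418, 1302 and 1424 against 775, 743 and 831 in *egfp* KD (log2 change 0.82, SE 0.11, adjusted p = 0.000483). Both held without any single library. *EIF3H*, a subunit of the scaffold eIF3, fell instead, with 669, 703 and 707 against 1038, 1089 and 1275 in *egfp* KD (log2 change −0.70, SE 0.12, adjusted p = 0.00292). Over 19 tested translation factors, 4 rose and 2 fell, with a median log2 change of 0.36. In the second table's 10, the counts were 1 and 1, with a median of 0.07. For the 8 that the first table does not name, the median was 0.02, in a set that leaves out most genes that rose. Without *fbl-1* KD replicate 3 the counts over the 19 were 2 higher and 1 lower, and 1 was lower in each of the other 5 fits with a library left out.

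Genes that the factor ATF4 activates in mammals under amino acid or protein-folding stress were examined as a list of 11, of which 5 rose and 1 fell (median log2 change 0.55). *CHAC1*, which breaks down glutathione, had 1873, 1811 and 1941 in the libraries labelled *fbl-1* KD, against 769, 683 and 646 in *egfp* KD. This was a 2.68-fold rise with no overlap (log2 change 1.42, SE 0.11, adjusted p = 2.7e-06). *GTPBP2*, a GTPase that acts with ribosome rescue factors in mammals, had 567, 539 and 531 against 274, 290 and 228 in *egfp* KD (log2 change 1.05, SE 0.13, adjusted p = 0.00031). *XPOT*, the exporter of tRNA from the nucleus, had 1055, 1119 and 1097 against 623, 818 and 760 in *egfp* KD (log2 change 0.58, adjusted p = 0.013), a call lost without *fbl-1* KD replicate 1 (adjusted p = 0.0554) or replicate 3 (0.0792). The amino acid transporter *SLC7A6* rose by 0.55 on the log2 scale (adjusted p = 0.0126). Its adjusted p was between 0.05 and 0.0773 without any 1 of the 3 libraries labelled *fbl-1* KD or without *egfp* KD replicate 3. The second table names 6 of the 11 list members, of which 1 rose and 1 fell (median log2 change 0.09). Of the 4 members that the first table does not name, 0 rose and 1 fell (median −0.34). Leaving out that table removes most genes that rose, so this count cannot speak to the direction of the list. Leaving out *fbl-1* KD replicate 3 left 2 higher in the full list, and leaving out *fbl-1* KD replicate 1 or 2, or *egfp* KD replicate 3, left 3.

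Some structural genes of the ribosome fell. Of 15 tested cytosolic ribosomal protein genes, none rose and 6 fell (0 and 8 at an unadjusted p below 0.05, limma), with a median log2 change of −0.58, and of the 12 from the second table, 3 fell and none rose (median −0.29). *RPL3*, a core protein of the large subunit, had 50, 36 and 38 in the libraries labelled *fbl-1* KD, against 112, 102 and 107 in *egfp* KD, without overlap (log2 change −1.36, SE 0.23, adjusted p = 0.00327). *RPS12*, of the small subunit, had 853, 802 and 1024 against 1999, 1395 and 1680 in *egfp* KD (log2 change −0.91, SE 0.14, adjusted p = 0.00146). *RPL28* had 1385, 1217 and 1458 against 3296, 1915 and 2188 in *egfp* KD (log2 change −0.83, SE 0.16, adjusted p = 0.00859). For *RPS12* and *RPL28*, *egfp* KD replicate 1 was the highest library, yet both calls held without it. Over the list, the median level relative to each gene's own mean was −0.37, −0.35 and −0.11 in the libraries labelled *fbl-1* KD, against 0.71, −0.14 and 0.04 in *egfp* KD (log2 scale). *egfp* KD replicate 1 therefore stands apart from the other controls in these genes. With it left out, 4 fell and 1 rose, and the median log2 change was −0.18; without *fbl-1* KD replicate 1, replicate 3 or *egfp* KD replicate 3 the number that fell was 3, 4 and 3.

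Of 7 tested histone genes, made in bulk when cells copy their DNA, 4 fell and 1 rose (median log2 change −0.64), and of the 6 from the second table, 3 fell and 1 rose (median −0.33). *HIST1H2BL*, a match to histone H2B, had 783, 910 and 1003 in the libraries labelled *fbl-1* KD against 1671, 1349 and 1545 in *egfp* KD (log2 change −0.76, SE 0.13, adjusted p = 0.00279). *HIST2H3A*, a match to histone H3, had 142, 117 and 148 against 243, 274 and 216 in *egfp* KD (log2 change −0.84, SE 0.17, adjusted p = 0.00947). Neither gene overlapped between groups. Without *fbl-1* KD replicate 1, *fbl-1* KD replicate 3 or *egfp* KD replicate 3 the list had 3, 2 and 3 lower, and 0 higher in each. Factors that assemble ribosomes had a small positive median (log2 change 0.32 over 53 genes). In this list 7 rose and none fell (24 and 0 at an unadjusted p below 0.05, limma), *fbl-1* itself among them. Of the 40 from the second table, 4 rose, again with *fbl-1* among them (median 0.22). *FTSJ3*, which methylates precursor rRNA, had 758, 682 and 729 against 482, 493 and 465 in *egfp* KD (log2 change 0.59, adjusted p = 0.00905, and 0.0594 or 0.0614 without *fbl-1* KD replicate 1 or 3). The list kept 1 call without *fbl-1* KD replicate 1 or replicate 3, which was that of *fbl-1* itself, and had 2 without *egfp* KD replicate 3.

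Outside these groups, the rise with the highest fold among named genes was that of *LIPA* (SMED30002911), a match to lysosomal acid lipase, which frees fatty acids from cholesteryl esters and triglycerides. It had 108, 285 and 149 in the libraries labelled *fbl-1* KD, against 3, 4 and 4 in *egfp* KD (log2 change 5.17, SE 0.38, adjusted p = 1.47e-06). With so few reads in the controls, the size of the change depends on the pseudocount: the log2 change was 5.33 with 0.5 and 4.31 with 5. *ARIH1*, a ubiquitin ligase, had nearly equal values within each group, 4121, 3994 and 3997 in the libraries labelled *fbl-1* KD, against 1414, 1382 and 1518 in *egfp* KD (log2 change 1.49, SE 0.11, adjusted p = 1.47e-06). In the libraries labelled *fbl-2* KD *ARIH1* also rose, by 1.11 (adjusted p = 0.00241). A pair of soluble lectins of the collectin family, proteins that bind sugars on microbes in vertebrates, rose too, and both carry the cell type label Intestine. *COLEC11* had 442, 593 and 582 against 233, 110 and 159 in *egfp* KD (log2 change 1.74, SE 0.22, adjusted p = 0.000257). *SFTPD* had 1805, 2530 and 2768 against 1206, 709 and 795 in *egfp* KD (log2 change 1.40, SE 0.18, adjusted p = 0.000348). In both lectin genes *egfp* KD replicate 1 was the highest control and still lay below every library labelled *fbl-1* KD. The tubulin gene *TUBB2B* (43, 23 and 32 against 14, 10 and 4 in *egfp* KD; adjusted p = 0.0378) lost its call without *fbl-1* KD replicate 1 (0.176), *fbl-1* KD replicate 3 (0.129) or *egfp* KD replicate 3 (0.159). *AKAP14*, an anchor for protein kinase A (64, 29 and 74 against 24, 20 and 18 in *egfp* KD; adjusted p = 0.0496), kept its call only without *fbl-1* KD replicate 2, with adjusted p of 0.0638 to 0.236 in the other 5 fits. Among genes without a name, SMED30011034 had 90, 134 and 124 against 22, 24 and 15 in *egfp* KD (log2 change 2.46, adjusted p = 0.000104). SMED30009965 had 482, 573 and 557 against 161, 103 and 179 in *egfp* KD (log2 change 1.89, adjusted p = 1.91e-05).

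Among falls, *MIOX*, which opens the ring of inositol as the first step of its breakdown, had 58, 84 and 66 in the libraries labelled *fbl-1* KD, against 264, 274 and 326 in *egfp* KD. The fall was 4.14-fold with no overlap (log2 change −2.05, SE 0.19, adjusted p = 1.15e-05). *KCP*, a match to a secreted regulator of BMP signalling, had 26616, 32444 and 25648 against 57909, 69526 and 79690 in *egfp* KD (log2 change −1.29, SE 0.19, adjusted p = 0.00101). A match to an L-cysteine desulfhydrase of rice had 199, 210 and 193 against 501, 519 and 575 in *egfp* KD (log2 change −1.40, SE 0.13, adjusted p = 1.58e-05). *ZBED9* had 359, 375 and 305 against 792, 778 and 884 in *egfp* KD (log2 change −1.24, SE 0.13, adjusted p = 2.87e-05). These 4 calls held without any single library. *MVB12B*, a match to a subunit of the ESCRT-I sorting complex, had 127, 235 and 265 against 1086, 398 and 429 in *egfp* KD (log2 change −1.51, SE 0.31, adjusted p = 0.011), with *egfp* KD replicate 1 far above the other controls; the call was lost without *fbl-1* KD replicate 1 (0.0732).

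Several of the steepest falls were transcription factors at low values. *TWIST2*, a basic helix-loop-helix factor of mesoderm, had 3, 11 and 0 in the libraries labelled *fbl-1* KD, against 24, 28 and 40 in *egfp* KD (log2 change −3.09, SE 0.72, adjusted p = 0.0208). *DMRT2*, a factor of somite patterning in vertebrates, had 10, 8 and 12 against 26, 41 and 46 in *egfp* KD (log2 change −1.79, SE 0.39, adjusted p = 0.015). *MSC*, another factor of the basic helix-loop-helix family, had 14, 6 and 9 against 30, 30 and 37 in *egfp* KD (log2 change −1.71, SE 0.41, adjusted p = 0.0262). All 3 genes carry the label Muscle, and none overlapped between groups. *FOXF1*, a forkhead factor of mesoderm around the gut, had 4, 14 and 13 against 37, 34 and 32 in *egfp* KD (log2 change −1.80, SE 0.45, adjusted p = 0.0327). The depth difference between groups lies beside these values, and each call rests on single libraries. Without *egfp* KD replicate 3 the adjusted p was 0.124 for *TWIST2*, 0.114 for *DMRT2*, 0.145 for *MSC* and 0.115 for *FOXF1*. *TWIST2* was also lost without *fbl-1* KD replicate 1 (0.0628), *fbl-1* KD replicate 3 (0.0583) or *egfp* KD replicate 2 (0.0501), and *DMRT2* without *egfp* KD replicate 2 (0.0504). *FOXF1* passed only without *fbl-1* KD replicate 2 and *MSC* only without *fbl-1* KD replicate 1. The log2 change of *TWIST2* was −3.49 with a pseudocount of 0.5 and −2.02 with 5. *ZNF7* and *CYHR1* also fell, by log2 changes of −1.44 and −1.73, and did not keep their calls without *egfp* KD replicate 3 (0.0892 and 0.142). *ZNF7* was lost as well without *fbl-1* KD replicate 1 (0.0643) or 3 (0.076), and *CYHR1* without *fbl-1* KD replicate 1 (0.095), *fbl-1* KD replicate 2 (0.054) or *egfp* KD replicate 2 (0.0743).

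Of 38 tested genes of lipid metabolism, 11 fell and 3 rose (median log2 change −0.27), and of the 29 from the second table, 10 fell and 2 rose. *ACSL5*, which activates fatty acids with coenzyme A, had 1057, 1030 and 994 in the libraries labelled *fbl-1* KD, against 2163, 2115 and 2153 in *egfp* KD. Within each group its values were nearly equal (log2 change −1.06, SE 0.10, adjusted p = 2.07e-05). *MOGAT2*, which rebuilds fat from absorbed monoglyceride in the gut of mammals, had 136, 183 and 187 against 352, 317 and 388 in *egfp* KD (log2 change −1.07, SE 0.16, adjusted p = 0.00146). *ECH1*, of fatty acid oxidation, had 222, 237 and 241 against 423, 401 and 407 in *egfp* KD (log2 change −0.81, SE 0.13, adjusted p = 0.00239). *ELOVL4*, which lengthens fatty acids, had 558, 590 and 633 against 926, 887 and 996 in *egfp* KD (log2 change −0.66, SE 0.12, adjusted p = 0.00432). The list had 5, 4 and 4 lower without *fbl-1* KD replicate 1, *fbl-1* KD replicate 3 or *egfp* KD replicate 3, and 1 and 0 higher without *fbl-1* KD replicate 1 or 3. The 4 named genes held in every such fit.

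Genes of amino acid metabolism were mixed, with 4 higher and 8 lower of 36 (median log2 change −0.11; 2 higher and 7 lower of 28 in the second table). *THNSL2*, a match to a threonine synthase-like enzyme, had 216, 328 and 273 against 482, 455 and 619 in *egfp* KD (log2 change −0.93, SE 0.17, adjusted p = 0.00463). *MAT2A*, which makes the methyl donor S-adenosylmethionine, rose, with 1844, 2014 and 1699 against 1204, 1229 and 1157 in *egfp* KD (log2 change 0.63, SE 0.11, adjusted p = 0.00452). These genes did not overlap between groups. The number lower in the list was 4, 5, 3 and 4 without *fbl-1* KD replicate 1, 2 or 3 or *egfp* KD replicate 3, and the number higher was 2 without *fbl-1* KD replicate 1, *fbl-1* KD replicate 3 or *egfp* KD replicate 3. In sugar and carbon metabolism 5 of 23 fell and 1 rose (median log2 change −0.38), and all 6 are among the 20 from the second table. Beside *MIOX* stood *AKR1A1*, an aldehyde reductase of the same inositol and glucuronate branch in mammals, with 1163, 1323 and 1338 against 2127, 2017 and 2270 in *egfp* KD (log2 change −0.75, SE 0.11, adjusted p = 0.00122). That list had 2 lower and 0 higher without *fbl-1* KD replicate 1, *fbl-1* KD replicate 3 or *egfp* KD replicate 3. *FTMT*, a match to mitochondrial ferritin that stores iron, had 175, 212 and 163 against 413, 330 and 490 in *egfp* KD (log2 change −1.15, SE 0.17, adjusted p = 0.00094).

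Lysosomal and digestive hydrolases split by gene: 14 of 42 rose and 6 fell (median log2 change 0.32), and of the 32 from the second table, 8 rose and 6 fell. *LIPF*, a match to gastric lipase labelled Cathepsin+ cell, had 3633, 3373 and 3659 in the libraries labelled *fbl-1* KD, against 1858, 1944 and 1839 in *egfp* KD (log2 change 0.92, SE 0.11, adjusted p = 0.000129). The serine protease *PRSS12* (SMED30005872), labelled Intestine, fell, with 1247, 1382 and 1165 against 2670, 2873 and 3157 in *egfp* KD (log2 change −1.20, SE 0.12, adjusted p = 1.7e-05). Both genes held without any single library. Without *fbl-1* KD replicate 1, 2 or 3 or *egfp* KD replicate 3 the number higher was 9, 10, 10 and 8. The number lower was 4, 5, 4 and 5 in these fits.

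Of 58 solute carriers 4 rose and 8 fell, with a median log2 change of −0.01. The 4 that rose are named through the table chosen on these libraries: of the 35 from the second table, 8 fell and 0 rose (median −0.28). *SLC9A2*, a sodium and proton exchanger, had 1313, 1379 and 1121 in the libraries labelled *fbl-1* KD, against 540, 578 and 472 in *egfp* KD (log2 change 1.26, SE 0.12, adjusted p = 2.07e-05). *SLC17A5*, which carries sialic acid out of lysosomes, had 1329, 1555 and 1404 against 742, 723 and 720 in *egfp* KD (log2 change 0.97, SE 0.11, adjusted p = 0.000112). *SLC24A5*, a cation exchanger, fell, with 212, 197 and 155 against 407, 317 and 338 in *egfp* KD (log2 change −0.91, SE 0.16, adjusted p = 0.00458). The number of solute carriers lower was 2, 2 and 1 without *fbl-1* KD replicate 1, *fbl-1* KD replicate 3 or *egfp* KD replicate 3, and the number higher was 2 without any 1 of the 3 libraries labelled *fbl-1* KD or *egfp* KD replicate 3. Among 9 ABC transporters, 2 rose and 3 fell, against 0 and 3 of the 6 from the second table (median −0.37), and the number lower was 1, 0 and 1 without *fbl-1* KD replicate 1, *fbl-1* KD replicate 3 or *egfp* KD replicate 3, where 1 was higher. *ABCA1*, a lipid exporter, had 1951, 2085 and 2141 against 1159, 1381 and 1335 in *egfp* KD (log2 change 0.68, SE 0.11, adjusted p = 0.00298). *ABCC1*, an exporter of drug conjugates, had 485, 573 and 457 against 774, 841 and 789 in *egfp* KD (log2 change −0.67, SE 0.12, adjusted p = 0.00569, and 0.0575 without *fbl-1* KD replicate 3).

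Matrix genes fell in part. Of 40 tested, 13 fell and 4 rose (median log2 change −0.22), and of the 30 from the second table, 12 fell and 4 rose. *HMCN1*, a match to hemicentin of basement membranes, had 413, 462 and 342 against 696, 710 and 966 in *egfp* KD (log2 change −0.96, SE 0.15, adjusted p = 0.00207). *TGFBI*, an adhesion protein of the matrix, had 1683, 2226 and 1532 against 3055, 2988 and 3823 in *egfp* KD (log2 change −0.87, SE 0.14, adjusted p = 0.00289). Both carry the label Intestine. *FBN2*, a match to fibrillin and labelled Cathepsin+ cell, rose, with 6696, 5744 and 6086 against 3318, 3712 and 3778 in *egfp* KD (log2 change 0.78, SE 0.12, adjusted p = 0.00145). *COL6A5*, a collagen VI chain, had 2471, 2412 and 2349 against 1492, 1589 and 1669 in *egfp* KD (log2 change 0.61, SE 0.11, adjusted p = 0.00447). These 4 calls held without any single library. The number lower in the list was 6, 4 and 6 without *fbl-1* KD replicate 1, *fbl-1* KD replicate 3 or *egfp* KD replicate 3, and the number higher was 2 without *fbl-1* KD replicate 1 or 3.

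Genes of motile cilia, which beat on the planarian epidermis and in its flame cells, had higher values as a list. Of 87 tested, 35 rose and none fell (60 and 0 at an unadjusted p below 0.05, limma), and the median log2 change was 0.49. Of the 52 from the second table, 16 rose and none fell, with a median of 0.41. The 35 that rose had log2 changes of 0.42 to 0.94 and included 9 matches to axonemal dynein heavy chains, 9 to CFAP proteins and 4 to tektins. *CCDC39*, which sets the spacing of dyneins along the axoneme, had 776, 561 and 637 in the libraries labelled *fbl-1* KD, against 298, 406 and 326 in *egfp* KD (log2 change 0.94, SE 0.15, adjusted p = 0.00239). *DNAH17*, an outer dynein heavy chain, had 9834, 7458 and 8334 against 3892, 5815 and 3985 in *egfp* KD (log2 change 0.92, SE 0.16, adjusted p = 0.00379). *TEKT3*, a tektin (SMED30029546), had 422, 459 and 379 against 245, 252 and 242 in *egfp* KD (log2 change 0.76, SE 0.13, adjusted p = 0.00452). *GAS8*, of the dynein regulatory complex, had 780, 513 and 698 against 408, 352 and 276 in *egfp* KD (log2 change 0.94, SE 0.17, adjusted p = 0.00518). In *CCDC39* and *DNAH17* the groups came closest between *fbl-1* KD replicate 2 and *egfp* KD replicate 2. The median level of the list relative to each gene's mean was 0.37, 0.16 and 0.25 in the libraries labelled *fbl-1* KD, against −0.22, −0.19 and −0.32 in *egfp* KD (log2 scale). The count, however, fell to 5, 10 and 9 without *fbl-1* KD replicate 1, *fbl-1* KD replicate 3 or *egfp* KD replicate 3, and was 0 with a single prior variance for all levels in limma. Transcript lengths are not used here, so a relation between length and change was not tested.

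Contractile and sarcomere genes had a median log2 change of 0.41, with 6 of 30 higher and 1 lower, and 0.32 in the 18 from the second table, with 4 higher and 1 lower. *TTN* (SMED30008578), a match to titin, had 1477, 1036 and 1291 against 754, 920 and 742 in *egfp* KD (log2 change 0.65, adjusted p = 0.0142), and lost its call without *fbl-1* KD replicate 1 (0.101), *fbl-1* KD replicate 3 (0.0916) or *egfp* KD replicate 3 (0.0783). *TAGLN3*, an actin-binding transgelin labelled Muscle, fell, with 182, 224 and 248 against 420, 361 and 454 in *egfp* KD (log2 change −0.92, SE 0.15, adjusted p = 0.00316). The number of contractile genes higher was 0, 0 and 1 without *fbl-1* KD replicate 1, *fbl-1* KD replicate 3 or *egfp* KD replicate 3. It was 4 with *egfp* KD replicate 1 left out and 14 with *egfp* KD replicate 2 left out. TRAF adaptors, which link TNF receptors to kinases and form a large family of matches here, had 8 of 39 higher and 1 lower (median log2 change 0.35), and of the 19 from the second table, 3 higher and 0 lower (median 0.26). *TRAF3* (SMED30002663) had 799, 726 and 739 against 351, 380 and 330 in *egfp* KD (log2 change 1.09, SE 0.12, adjusted p = 8.17e-05). *TRAF5* (SMED30006046) had 447, 487 and 524 against 237, 304 and 292 in *egfp* KD (log2 change 0.81, SE 0.14, adjusted p = 0.00385). The TRAF count was 3, 4 and 4 higher without *fbl-1* KD replicate 1, *fbl-1* KD replicate 3 or *egfp* KD replicate 3, and 1 was lower only without *fbl-1* KD replicate 2. Channels, receptors and synaptic genes had 5 of 91 higher and none lower (27 and 4 at an unadjusted p below 0.05, limma). Their median log2 change was 0.37, but 0.09 for the 30 in the second table. *PCSK1*, a match to a convertase of neuropeptide precursors, had 478, 429 and 424 against 260, 255 and 242 in *egfp* KD (log2 change 0.81, SE 0.13, adjusted p = 0.00239). That list kept 1 gene higher without *fbl-1* KD replicate 1, *fbl-1* KD replicate 3, *egfp* KD replicate 1 or *egfp* KD replicate 3, and had 12 without *egfp* KD replicate 2.

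**Figure D3:**
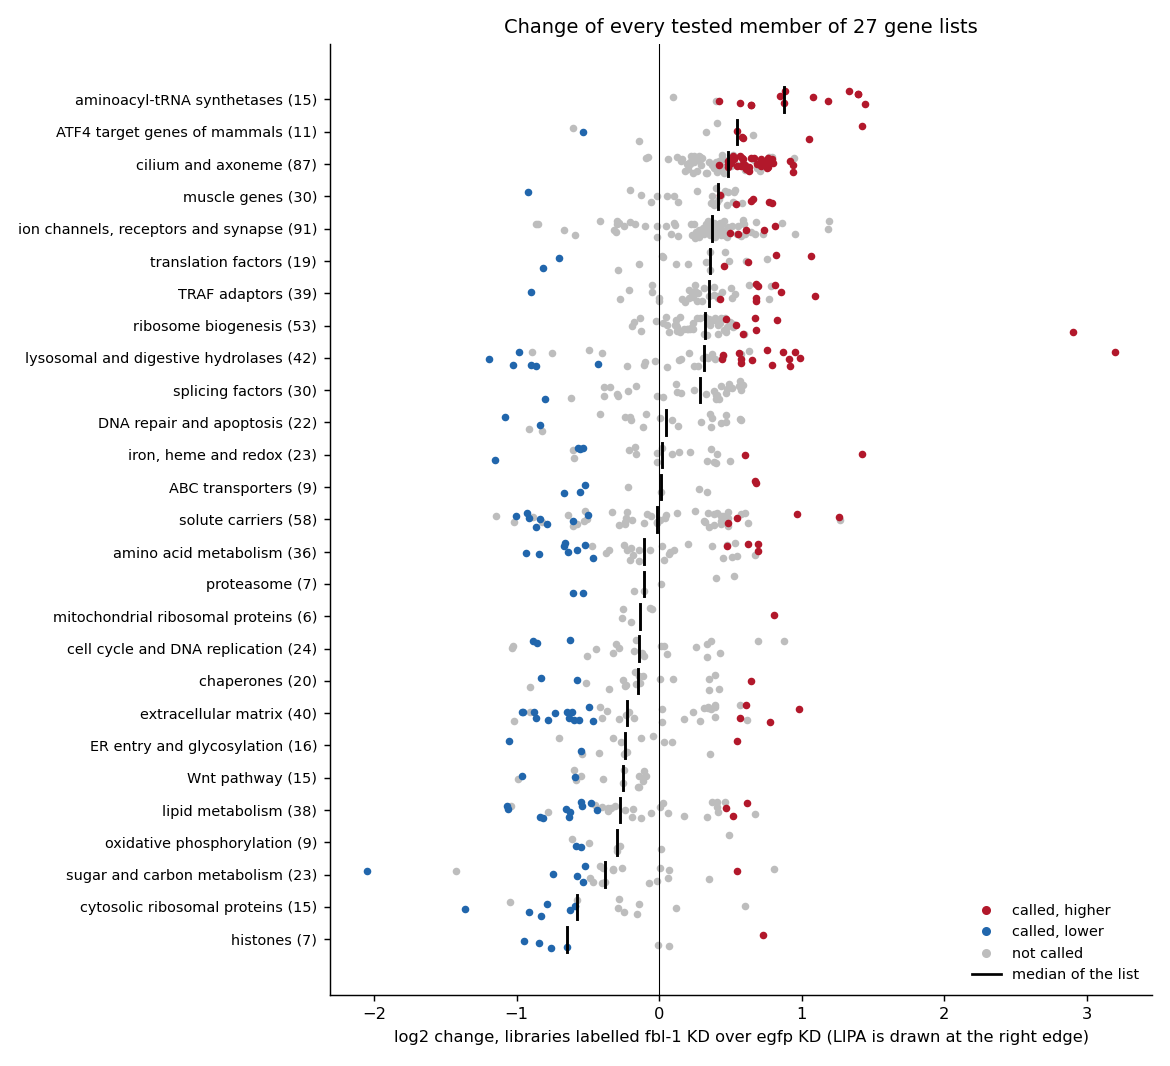
Log2 change of every tested member of 27 gene lists, libraries labelled *fbl-1* KD over *egfp* KD, with the number of tested members in brackets. Red points rose, blue points fell, grey points were not called, black bars are list medians and *LIPA* (5.17) is drawn at the right edge; synthetases sit at the top with a median of 0.88 and histones at the bottom with −0.64.

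The 3 stem cell genes all had lower values than in *egfp* KD, and 2 of them passed the test. *piwi-1*, the marker of neoblasts, had 7610, 8794 and 7534 in the libraries labelled *fbl-1* KD, against 12299, 12634 and 13971 in *egfp* KD (log2 change −0.70, SE 0.13, adjusted p = 0.00604). Its call was lost without *fbl-1* KD replicate 1 (0.0554) or replicate 3 (0.0671). *MCM2*, a part of the replication helicase, had 572, 616 and 569 against 762, 856 and 753 in *egfp* KD (log2 change −0.43, SE 0.12, adjusted p = 0.0438) and passed only without *egfp* KD replicate 1, with 0.0616 to 0.181 in the other 5 fits. *vasa-1*, an RNA helicase of stem and germ cells, had 3827, 3427 and 3835 against 4762, 5282 and 4491 in *egfp* KD, also without overlap, but did not pass (log2 change −0.39, SE 0.12, adjusted p = 0.0685). Among 24 genes of the cell cycle and replication, 3 fell (12.5%) and none rose (7 lower and 3 higher at an unadjusted p below 0.05, limma). Over all named genes the shares were 7.49% lower and 11.7% higher. Of the 16 that the second table names, 2 fell, beside 8.15% lower over all its genes. Whether the list departs from these shares was not tested. *CDC25C*, the phosphatase that opens mitosis, had 383, 343 and 378 against 720, 651 and 635 in *egfp* KD (log2 change −0.86, SE 0.12, adjusted p = 0.000741). *PLK1*, a mitotic kinase, had 579, 515 and 604 against 819, 879 and 926 in *egfp* KD (log2 change −0.63, SE 0.12, adjusted p = 0.00658). *CDC25C* and *PLK1* held without any single library, whereas *CKS2*, the third that fell, passed in none of the 6 such fits (0.0794 to 0.132).

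Along the epidermal lineage, markers moved in both directions and weakly. *prog-1*, of early progenitors, had 685, 629 and 696 in the libraries labelled *fbl-1* KD, against 1309, 791 and 951 in *egfp* KD (log2 change −0.57, SE 0.15, adjusted p = 0.0427; 0.0999 to 0.131 in 5 of the 6 fits with a library left out, all but that without *egfp* KD replicate 2). *egr-5*, a factor of later progenitors, had 320, 331 and 305 against 207, 216 and 242 in *egfp* KD (log2 change 0.52, SE 0.14, adjusted p = 0.0423), and passed in none of the 6 fits (0.0686 to 0.135). *AGAT-1*, of late progenitors, had 2066, 1890 and 1923 against 1673, 1786 and 1875 in *egfp* KD, with a log2 change of 0.14 (adjusted p = 0.501). *zpuf-4* and *zpuf-3* overlapped between groups, with log2 changes of −0.28 and −0.44 (adjusted p = 0.536 and 0.492). None of the 8 wound response genes passed with limma, and 2 had an unadjusted p below 0.05. *jun-1*, an early response factor, had 2067, 2125 and 1952 against 2595, 2590 and 2732 in *egfp* KD (log2 change −0.37, SE 0.11, adjusted p = 0.0596), and *nlg-1*, a noggin-like gene, had 42, 75 and 68 against 139, 89 and 107 in *egfp* KD (log2 change −0.86, SE 0.26, adjusted p = 0.0648, and 0.0452 without *fbl-1* KD replicate 2). *wnt-1*, *fos-1*, *runt-1*, *inhibin-1*, *wntless* and *glypican-1* overlapped between groups (adjusted p of 0.337 to 0.941). In the Wnt pathway all 15 tested genes had a log2 change below 0, with a median of −0.25. Of these, 2 passed, both from among the 14 of the second table, beside 8.15% lower over that table. That table is ordered by change under the *fbl-2* KD label, and the part of this order in the shared sign was not tested. *SFRP5*, a secreted Wnt inhibitor labelled Muscle, had 61, 56 and 61 against 95, 122 and 136 in *egfp* KD (log2 change −0.96, SE 0.21, adjusted p = 0.0172), and *FZD4*, a Wnt receptor, had 192, 244 and 215 against 323, 330 and 325 in *egfp* KD (log2 change −0.59, SE 0.14, adjusted p = 0.0268). Neither of these 2 passed without *fbl-1* KD replicate 1 (0.0524 and 0.13), *fbl-1* KD replicate 3 (0.0619 and 0.11) or *egfp* KD replicate 3 (0.111 and 0.0986).

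Genes with exactly 1 cell type label were counted within the second table, which was ordered by *fbl-2* knockdown and not by these libraries. Of 86 genes labelled Intestine, 34 fell (39.5%) and 4 rose (4.65%), beside 8.15% each over that table, and 70 of the 86 had a log2 change below 0 (median −0.47). Its median level relative to each gene's mean was −0.32, −0.11 and −0.22 in the libraries labelled *fbl-1* KD, against 0.22, 0.19 and 0.25 in *egfp* KD (log2 scale). The fallen genes include *PRSS12*, *KCP*, *MOGAT2*, *HMCN1*, *TGFBI*, *FTMT* and *ABCC1*, given above. *SFTPD* was among the 4 that rose. Over both name tables the label holds 128 tested genes, of which 34 fell and 14 rose, with a median of −0.14. These genes were low under the *fbl-2* KD label as well, with a median log2 change of −0.43 in that comparison, by which the table is ordered. The number of Intestine genes that fell was 22, 17 and 22 without *fbl-1* KD replicate 1, *fbl-1* KD replicate 3 or *egfp* KD replicate 3. Of 48 genes labelled Muscle, 11 fell and 2 rose (median log2 change −0.33), *DMRT2*, *SFRP5* and *TAGLN3* among those that fell. Summed over the 48 Muscle genes, values were 88562, 72395 and 80656 in the libraries labelled *fbl-1* KD, against 66765, 79608 and 71078 in *egfp* KD, which overlap, and the list of contractile genes above had a median of 0.41. Without *fbl-1* KD replicate 1, *fbl-1* KD replicate 3 or *egfp* KD replicate 3, 3, 2 and 1 of them fell. Neoblast genes had 9 of 78 lower (11.5%) and 3 higher (3.85%), with a median of −0.20. The knockdown target *fbl-1* is 1 of the 3 that rose. The number of Neoblast genes lower was 2, 5 and 3 without *fbl-1* KD replicate 1, *fbl-1* KD replicate 3 or *egfp* KD replicate 3. Parapharyngeal genes had 5 of 32 higher and none lower (15 and 1 at an unadjusted p below 0.05, limma; median 0.35); 0, 1 and 0 rose without *fbl-1* KD replicate 1, *fbl-1* KD replicate 3 or *egfp* KD replicate 3. Genes labelled Cathepsin+ cell, Epidermal, Neural, Pharynx or Protonephridia had medians between −0.10 and 0.11 within the second table. Over both tables, medians were 0.33 for Cathepsin+ cell, 0.24 for Epidermal, 0.35 for Neural, 0.34 for Pharynx and 0.35 for Protonephridia, so that of Neural differs in sign between the sets. Summed over the 32 Parapharyngeal genes, values were 316218, 255385 and 321274 in the libraries labelled *fbl-1* KD, against 196533, 257878 and 135408 in *egfp* KD, which overlap.

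**Figure D4:**
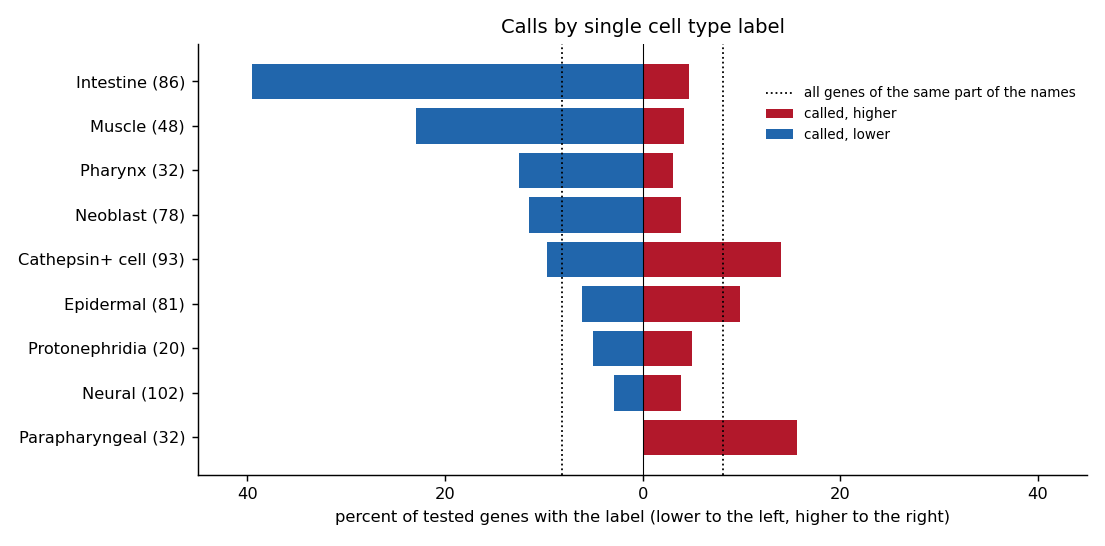
Percent of tested genes with exactly 1 cell type label that fell (blue, to the left) or rose (red, to the right) in the libraries labelled *fbl-1* KD, for genes of the second table, with gene numbers in brackets. Dotted lines mark the 8.15% over all genes of that table; Intestine stands out on the lower side with 39.5%.

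The change in the libraries labelled *fbl-1* KD was set against that in the libraries labelled *fbl-2* KD, each over its own controls. Both targets went against their labels: *fbl-1* had a log2 change of 2.90 in its own comparison, and *fbl-2* had 2.39 in its own (adjusted p = 0.000564). Of 13244 genes tested, the change was higher under the *fbl-1* KD label in 17 and lower in 4 (0.159% in all, 0.128% and 0.0302% by direction). Of the 17, 8 are tRNA synthetases, and *CHAC1*, *EIF2S1*, *SLC9A2*, *SLC17A5*, *TRAF3* and *LIPA* are also among them. *IARS* had a log2 change of 1.44 under the *fbl-1* KD label and 0.04 under the *fbl-2* KD label, a difference of 1.40 (SE 0.16, adjusted p = 0.000474). For *CHAC1* the 2 changes were 1.42 and 0.00 (difference 1.42, SE 0.17, adjusted p = 0.000537). *MIOX* had the lower change under the *fbl-1* KD label, with −2.05 against −0.67 under the *fbl-2* KD label (difference −1.38, SE 0.25, adjusted p = 0.0307). For *ARIH1*, *PRSS12* and *KCP* the difference did not pass. *PRSS12* (SMED30005872) had −1.20 under the *fbl-1* KD label and −1.85 under the *fbl-2* KD label, and *KCP* had −1.29 and −1.64. The feeding strength also differed between these knockdowns, 4x and 2x, and cannot be told apart from the target. Leaving out single libraries gave 9 to 14 genes higher and 2 to 4 lower.

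**Figure D5:**
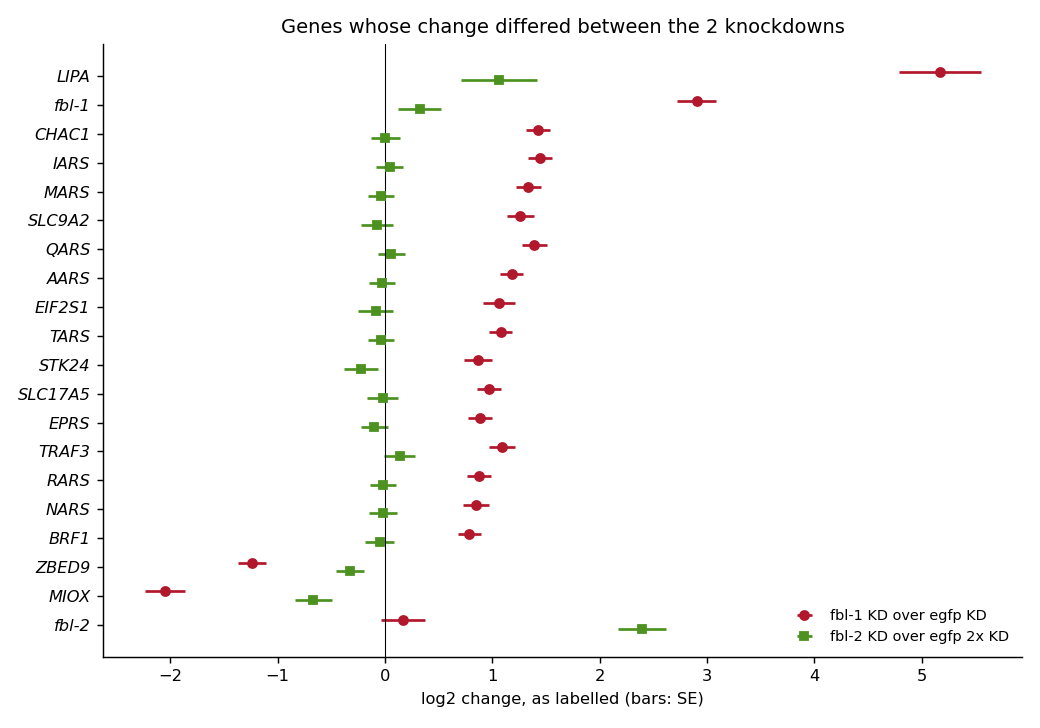
Log2 change of 20 of the 21 genes whose change differed between the knockdowns, *fbl-1* KD over *egfp* KD (red circles) and *fbl-2* KD over *egfp* 2x KD (green squares), with SE as bars. The synthetase genes, *CHAC1* and *EIF2S1* lie near 0 under the *fbl-2* KD label and between 0.85 and 1.44 under the *fbl-1* KD label.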

How the data were processed

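RNA-seq was compared between 3 libraries labelled *fbl-1* KD and 3 *egfp* KD libraries, each from a separate lysate, so p-values measure the spread between these lysates. Per the study's methods, rRNA was depleted with probes, reads were trimmed with Cutadapt and Sickle, remaining rRNA reads were removed, Tophat2 aligned the rest to a transcriptome and featureCounts counted unique reads. The deposited values are a signal that is neither raw counts nor TPM: the authors' columns hold whole numbers spaced as reads times 1 factor per library and then rounded, so no count model was fitted. All mapped columns of the table were used. The study's own fold changes and p-values, in its supplementary tables, were not used; gene names and cell type labels were taken from those tables, of which 1999 entries each are held.

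Genes with a value of at least 10 in at least 3 of 6 libraries were tested by limma (version 3.58.1, R 4.3.3) with a mean trend on log2(value + 1), which understates changes of low genes; p-values were adjusted by Benjamini-Hochberg over all tested genes and called below 0.05. The difference between knockdowns was fitted over 12 libraries. The fits were tested on simulated data. Named genes came from a fixed rule: both targets; the stem cell, epidermal and wound genes; in each list, the 4 lowest p-values; among calls with a symbol, without overlap and averaging 20 or more in the higher libraries, the 12 greatest log2 changes each way; and 3 or fewer calls each way that lack a symbol; the text prints those that carry a statement, and *TARS* and other genes of the knockdown difference were named after their values were seen. Some genes, 1 of them among those that differed between the knockdowns, are not reported here by name. The comparison and the gene lists were chosen with earlier results of these data known. Alternatives were other pseudocounts, filters, scalings and limma settings, a replicate block and each library left out. Figures were drawn with matplotlib 3.10.9 (Python 3.11.15).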

Additional observations from a re-analysis of the deposited data

Results flagged for a closer look

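The change in mRNA differed between the *fbl-1* and *fbl-2* knockdowns, each over its own controls, in 21 genes (limma, adjusted p of 0.000474 to 0.0409). The values of 20 of them are the log2 change under the *fbl-1* KD label minus that under the *fbl-2* KD label. For the knockdown targets themselves they were 2.58 for *fbl-1* and −2.23 for *fbl-2*, each gene being higher in the libraries labelled with its own knockdown. The tRNA synthetases had 1.40 (*IARS*), 1.37 (*MARS*), 1.33 (*QARS*), 1.21 (*AARS*), 1.11 (*TARS*), 0.98 (*EPRS*), 0.90 (*RARS*) and 0.87 (*NARS*). The difference was 1.42 for *CHAC1*, which breaks down glutathione, and 1.15 for the initiation factor subunit *EIF2S1*. *BRF1*, a match to a subunit of the factor that starts transcription by RNA polymerase III, had 0.84. The lipase match *LIPA* had 4.11, where the controls of the first comparison were at 3 and 4. Transport and signalling genes had 1.34 (*SLC9A2*), 0.99 (*SLC17A5*), 1.09 (the kinase match *STK24*) and 0.96 (*TRAF3*). On the lower side stood *MIOX* with −1.38 and *ZBED9* with −0.91. The 4x and 2x strengths of RNAi food cannot be told apart from the target in any of these.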

How the results depend on the processing

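Against 336 genes higher and 318 lower, limma with a single prior variance for all levels called 25 and 24, array weights 724 and 589, and the spread of all 12 libraries 194 and 258; leaving out 1 library gave 96 to 466 higher and 94 to 327 lower. Replicate numbers did not pair the libraries: the correlations of deviations were 0.0473, −0.137 and −0.0856, and a replicate block called 222 higher and 191 lower. Of the 17 and 4 genes that differed between the knockdowns, 10 and 1 were called with a single prior variance and 7 and 1 with the replicate block, and with 1 library left out 9 to 14 and 2 to 4. Without a filter on low values 231 and 217 were called. Requiring no overlap between groups, an alternative chosen after seeing the data, gave 326 and 318. Of the 146 genes followed, 116 were called, 59 of these in all 6 fits with a library left out. Across the 18 settings, 0 of the 116 changed sign, while 7 of the 30 not called did, *fbl-2* among them (−0.04 without *egfp* KD replicate 2). The causes were not tested. The calls of *TWIST2*, *DMRT2*, *MSC* and *FOXF1*, at low values, rested on single libraries, whereas that of *LIPA* held in all 6 fits; the part of depth was not tested.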

Other observations

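Among genes labelled Parapharyngeal, *FCGBP*, a match to a mucin-like secreted protein and chosen here after its value was seen, had 118191, 106997 and 125322 in the libraries labelled *fbl-1* KD against 61036, 73554 and 34204 in *egfp* KD (log2 change 1.12, adjusted p = 0.0201, limma). *FCGBP* was not called without *fbl-1* KD replicate 1 or without *egfp* KD replicate 3. Under the *fbl-2* KD label *FCGBP* rose as well, by 1.29 (adjusted p = 0.0402, limma). *SEC61B*, a subunit of the channel by which proteins enter the endoplasmic reticulum, had 74, 79 and 96 in the libraries labelled *fbl-1* KD against 208, 139 and 177 in *egfp* KD (log2 change −1.05, adjusted p = 0.00751). Of the 16 genes of entry into the endoplasmic reticulum and glycosylation, 1 rose (6.25%) and 2 fell (12.5%). Over all named genes the shares were 11.7% and 7.49%. Of the 13 from the second table, 0 rose and 1 fell. In oxidative phosphorylation 2 of 9 fell and none rose (6 and 0 at an unadjusted p below 0.05, limma), and neither call was made without *fbl-1* KD replicate 1, *fbl-1* KD replicate 3 or *egfp* KD replicate 3. Among 30 splicing factors 1 fell (3.33%) and none rose, beside 7.49% lower and 11.7% higher of all named genes. At an unadjusted p below 0.05 (limma), 6 of the 30 were lower and 13 higher. The median log2 change of the 30 was 0.28, but 0.12 for the 21 in the second table, where none rose or fell. For the 15 that the first table does not name, the median was −0.165, in a set that leaves out most genes that rose.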
